A study of Mus musculus with 8 samples.

Results

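Axon guidance ligands and receptors were taken as the protein-coding genes whose symbols belong to the ephrin, Eph, semaphorin, plexin, neuropilin, Slit, Robo and netrin families or to the netrin receptors Dcc and Unc5. The pattern of symbols gave 69 genes out of 22430 in the table, 35 ligands and 34 receptors, and all 69 were among the 16730 genes tested. Counts came from polyadenylated brain RNA of male C57Bl/6JRj mice, 4 animals of 6 months (6m) and 4 of 24 months (24m). The labels call the tissue whole brain and also brain hemisphere, so every value is an average over all regions and cell types.

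Axon guidance proteins steer growing axons during development and remain present in the adult brain, where several act at synapses and on dendritic spines. Ephrins are membrane-bound ligands of the Eph receptor tyrosine kinases. Semaphorins signal through plexins, for most secreted (class 3) members together with a neuropilin co-receptor. Slits are secreted ligands of Robo receptors, and netrins act through Dcc, mostly as attractants, and through Unc5 receptors as repellents.

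Of the 69 members, 35 were higher and 3 lower at 24m. A member was called when the quasi-likelihood test of edgeR gave a p of at most 0.05 after Benjamini-Hochberg adjustment over all tested genes together with a log2 fold change of at least 0.58 in size, written below as the log2 ratio of 24m over 6m with its SE. Among all tested genes 43.6% were called, 25.3% as higher and 18.3% as lower, against 55.1% of the members in either direction. The median log2 fold change was 0.62 over the members and -0.0034 over all tested genes. With a trend over exonic length removed from each library, these medians were 0.34 and -0.03. The members called lower were Robo3, Efna4 and Epha1. A further 10 members passed the adjusted p as higher and 2 as lower (Ephb6 and Ntn3) without reaching the fold-change threshold, and 19 did not pass it. Libraries of the ages did not overlap in 42 members, 28 of those called higher, all 3 called lower and 11 not called. That separation held for 55.2% of all tested genes. Receptors were called higher in 20 of 34 cases and lower in 2, with a median of 0.70. Ligands were called higher in 15 of 35 and lower in 1, with a median of 0.48. With the length trend removed the medians were 0.36 for receptors and 0.34 for ligands, whose median exonic lengths were 8427 and 6671 bases. The difference between receptors and ligands was not tested. Family medians ran from 0.00 in ephrin-A ligands to 1.53 in class 3 semaphorins, 1.57 in plexin-A receptors and 2.44 in netrin receptors. With the length trend removed the same families had 0.40, 1.11, 0.97 and 2.01. The split depended on scaling. With library totals alone 42 members were higher and 2 lower, as the median of all genes moved to 0.21 and 75.7% of all calls were higher in place of 58.1%, and after quantile normalization with DESeq2 30 were higher and 3 lower (47.9% of all calls higher).

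**Figure D1:**
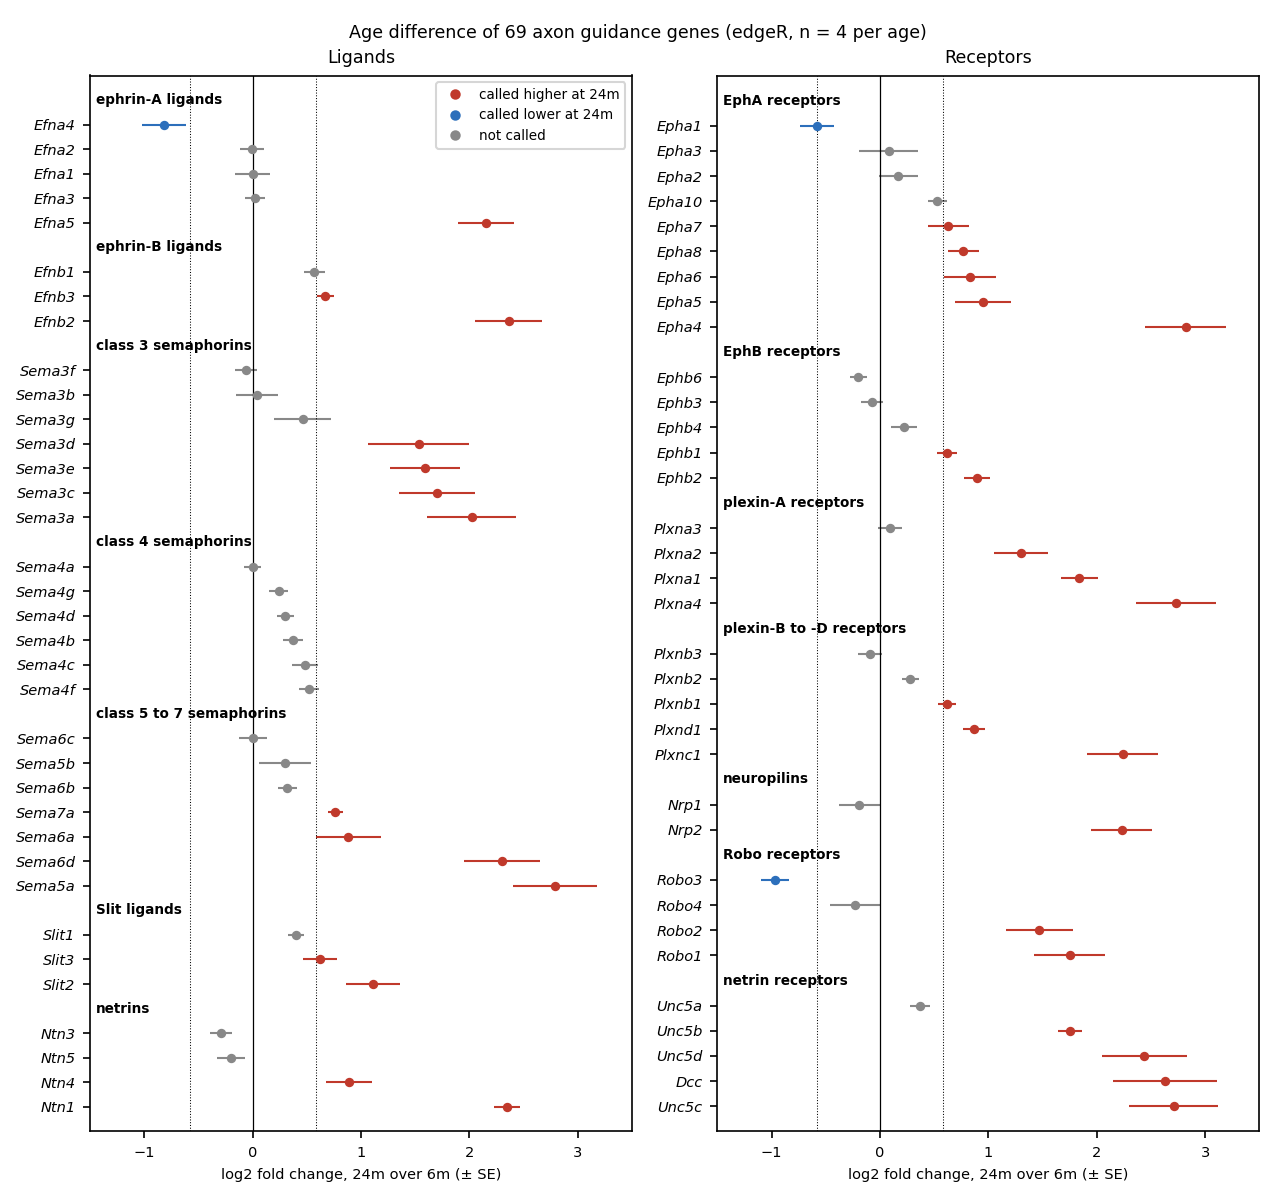
Log2 fold change of each of the 69 members, 24m over 6m, with bars of ± 1 SE (edgeR, n = 4 per age), ligands at left and receptors at right, sorted within families; dotted lines mark the fold-change threshold of 0.58. Most families hold both members close to 0 and members above the threshold, and only Efna4, Epha1 and Robo3 are called lower.

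Library totals were 63460940 to 103462414 counts, and the members had a median of 1001 counts per library and a lowest value of 7. The library of 24m replicate 1 stood apart. It was the deepest, with 103462414 counts against 72936345 to 77044751 in the other 24m libraries, and its scaling factor was 1.001 against 1.09 to 1.13 in those and 0.887 to 0.957 in 6m. The part of depth in the values of this library was not tested. It was the lowest 24m library in 32 of the 35 members called higher (91.4%), against 86.4% of all tested genes called higher and 41.9% of all tested genes with an annotation. Over those 35 members the median log2 ratio to the 6m mean was 0.76 in 24m replicate 1 and 1.81 for the mean of the other 24m libraries. It nevertheless lay above every 6m library in 28 of the 35, and the other 3 libraries of 24m did so in all 35. Without 24m replicate 1, 38 members were called higher and 3 lower, and all 38 calls made with it held. The highest 24m library was replicate 4 in 30 of the 35; without it, 30 members were called higher and 2 lower. The labels name no batch for either library.

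**Figure D2:**
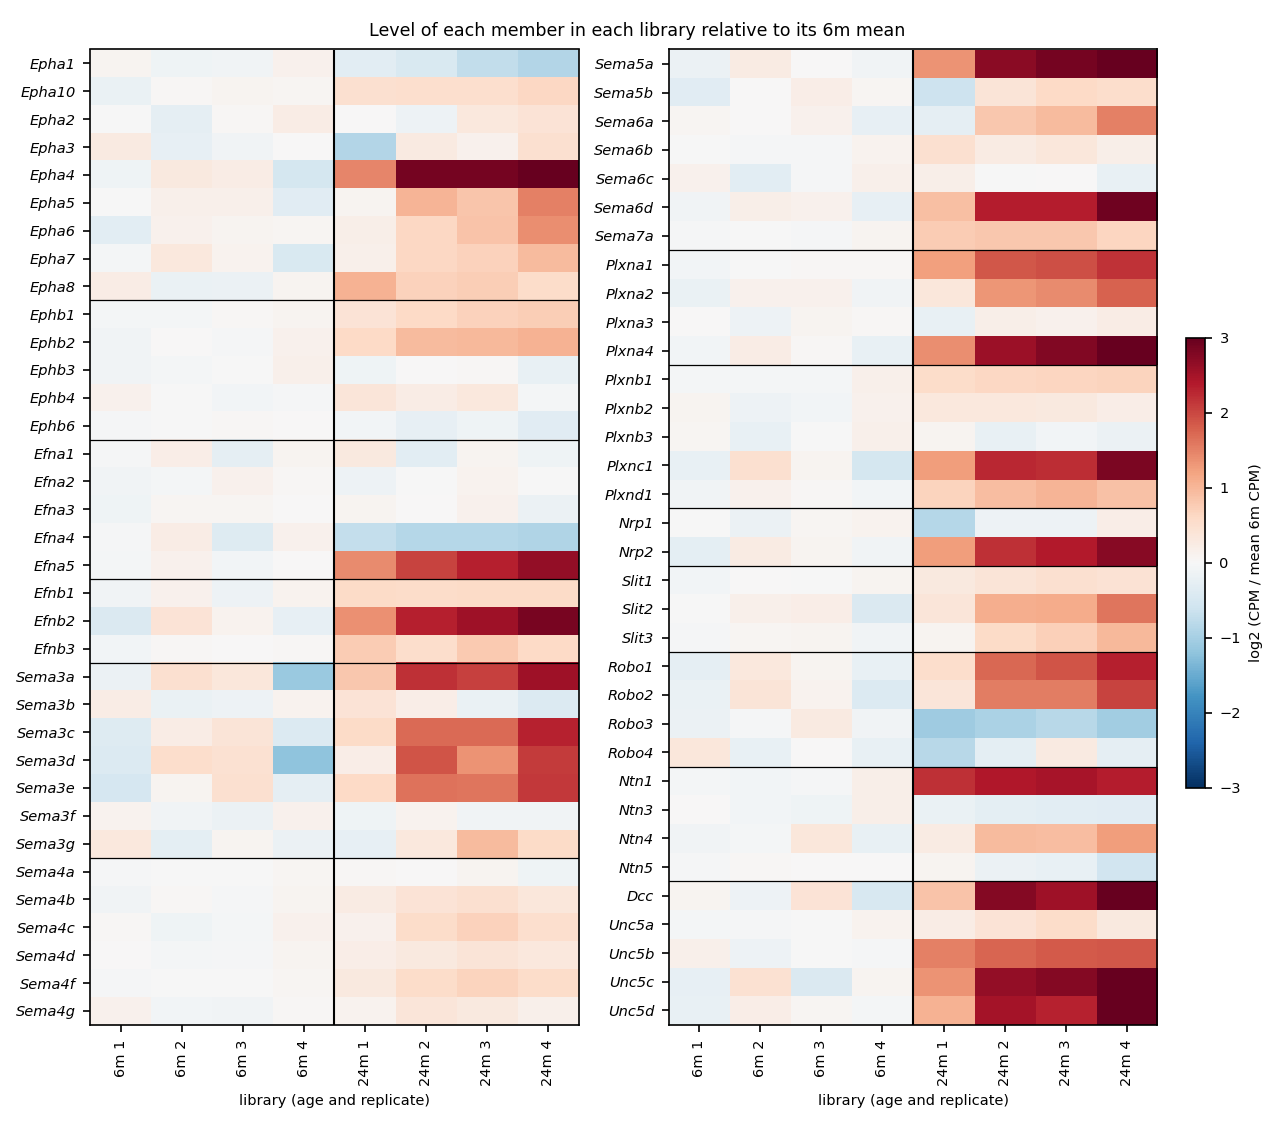
Level of each member in each of the 8 libraries, as the log2 ratio of CPM (counts per 1e+06 counts of the scaled library) to the 6m mean of that member; red is higher, blue lower, and black lines separate ages and families. In most members called higher the column of 24m replicate 1 is paler than those of 24m replicates 2 to 4 (it is the lowest in 32 of 35, the exceptions being Epha8, Efnb3 and Sema7a), and replicate 4 is mostly the darkest.

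Cell-type markers were read beside the members, because fewer cells of a type and less RNA per cell cannot be told apart in bulk tissue. Of all tested genes 43.6% were called, 25.3% as higher and 18.3% as lower. Shares called in these small lists ran from 12.5% (oligodendrocytes) to 66.7% (oligodendrocyte precursors). They were near the share of all genes for neurons (50%), endothelium (50%) and choroid plexus (42.9%). Among 10 neuron markers 3 rose and 2 fell (median log2 fold change 0.22). Their summed level was 4568 to 4857 CPM in 6m and 4885 to 5523 CPM in 24m. Among 8 astrocyte markers 4 were higher and 1 lower (median 0.70; summed level 2909 to 3837 and 2768 to 3835 CPM), among 6 oligodendrocyte precursor markers 3 higher and 1 lower (0.68; 110 to 139 and 163 to 184 CPM) and among 8 oligodendrocyte markers 1 higher and 0 lower (0.03; 3426 to 4286 and 3704 to 4282 CPM). Microglia markers gave 2 higher and 0 lower of 7 (0.34; 317 to 325 and 345 to 422 CPM). Mean summed levels of the vascular and choroid plexus lists were lower at 24m, but a few abundant genes weigh most in such sums. The list medians were -0.21 (endothelial), -0.14 (mural and meningeal) and 0.18 (choroid plexus). Ttr went from 2452 ± 681 to 1416 ± 676 CPM, of mean choroid plexus sums of 2495 and 1464 CPM. It was not called (-0.79 ± 0.33, adjusted p = 0.0598). Vtn held 138 of the 233 CPM of the mural and meningeal list at 6m. Endothelial markers summed to 80.9 to 119 CPM in 6m and 51.1 to 74.2 CPM in 24m, with 2 higher and 2 lower of 8. Mural and meningeal markers summed to 209 to 276 and 156 to 210 CPM, with 1 higher and 1 lower of 9, and choroid plexus markers to 1783 to 3208 and 828 to 2263 CPM, with 3 higher and 0 lower of 7. Defining markers of each type were detected, and no listed marker was at 0 in every library. The part of cell-type makeup in the differences below was not tested.

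Among the netrins, Ntn1 had the lowest adjusted p of all 69 members. Netrin-1 is the classical secreted attractant of commissural axons. Ntn1 (ENSMUSG00000020902, chr11:68100190-68291662, GRCm39) was at 2.67, 2.63, 2.74 and 3.16 CPM in 6m replicates 1 to 4 and at 12.8, 14.8, 15.5 and 14.3 CPM in 24m replicates 1 to 4. The ages were far apart, with little spread within either, and 24m replicate 1 stayed near the others. The increase was 2.35 ± 0.12 on the log2 scale (edgeR adjusted p = 1.11e-05), a ratio of means of 5.11, and it lay between 2.05 and 2.58 over all alternatives. Ntn4, a netrin of basement membranes, rose by 0.89 ± 0.21 from 3.68 ± 0.663 to 6.83 ± 1.84 CPM (SD, n = 4 each) with overlapping libraries. It lost its call only after quantile normalization with DESeq2 (0.54). The remaining netrins were not called. Ntn3 (ENSMUSG00000117406) was at 18.3, 17.1, 16.6 and 20.5 CPM in 6m and 15.7, 14.7, 14.5 and 14.4 CPM in 24m. Its 24m libraries all lay below the 6m libraries, but the log2 fold change of -0.29 ± 0.10 (adjusted p = 0.0241) was under the threshold. Ntn5 had a log2 fold change of -0.20 ± 0.13 (0.217), and 32.9% of its exonic bases are shared with a gene on the other strand.

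Of the 5 netrin receptors 4 were higher, with a family median of 2.44, or 2.72 without 24m replicate 1. Unc5c (ENSMUSG00000059921, chr3:141170977-141540685), a repellent receptor, was at 0.549, 0.891, 0.481 and 0.696 CPM in 6m and 1.67, 4.04, 4.38 and 7.16 CPM in 24m. All 24m libraries lay above all 6m libraries, with replicate 1 the nearest to them. Unc5c rose by 2.71 ± 0.41 (log2; adjusted p = 0.000467) and 2.99 without 24m replicate 1. Dcc, the attractive netrin receptor, had 0.381, 0.325, 0.481 and 0.257 CPM in 6m and 0.656, 2.42, 2.11 and 3.78 CPM in 24m (log2 fold change 2.63 ± 0.48, adjusted p = 0.0012). Unc5d gave 2.44 ± 0.39. Unc5b (ENSMUSG00000020099, chr10:60598372-60667396), expressed on neurons and on endothelial cells, was more even. It had 14.6, 11.9, 13.1 and 12.9 CPM in 6m and 37.6, 43.9, 46.7 and 47.8 CPM in 24m (log2 fold change 1.75 ± 0.11, adjusted p = 1.36e-05). Dcc, Unc5b and Unc5d are given beyond the naming rule and were picked after their values were seen. Unc5a (ENSMUSG00000025876) was the most abundant of the family per kb of exon at both ages, with 109, 110, 112 and 121 CPM in 6m and 131, 150, 165 and 139 CPM in 24m. These did not overlap either, but the log2 fold change of 0.37 ± 0.09 (adjusted p = 0.00492) was under the threshold. It passed with library totals alone (0.60) and with the GC trend removed (0.68).

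**Figure D3:**
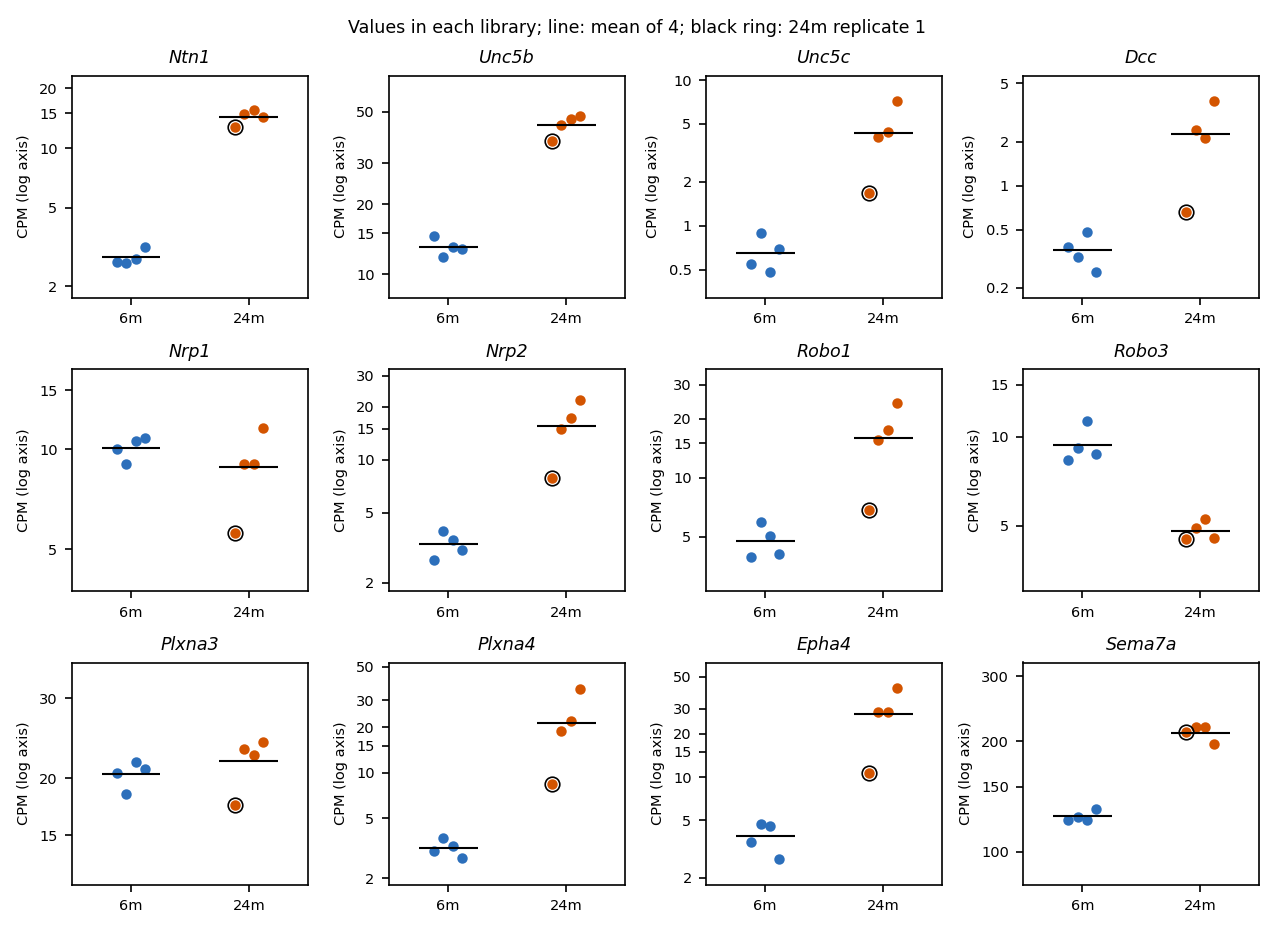
Level of 12 members in each library, in CPM on a log axis that differs between panels; horizontal lines are means of 4 libraries and a black ring marks 24m replicate 1. Ntn1, Unc5b and Sema7a separate by age with little spread, Unc5c, Dcc, Plxna4 and Epha4 separate with a low 24m replicate 1, Robo3 is lower at 24m, and Nrp1 and Plxna3 overlap.

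Slit ligands and Robo receptors did not move as 1 group. Slit2 (ENSMUSG00000031558, chr5:48140480-48465075) was at 4.18, 4.75, 4.88 and 3.16 CPM in 6m and 5.5, 9, 9.2 and 12.9 CPM in 24m, so that 24m replicate 1 lay just above the 6m libraries. Its log2 fold change of 1.11 ± 0.25 (adjusted p = 0.00337) was 0.32 with the length trend removed. Slit3 rose by 0.62 ± 0.16 with overlapping libraries and lost its call without 24m replicate 4 (0.48), after quantile normalization (0.49) and with the length trend removed (0.12). Slit1 (ENSMUSG00000025020), the most abundant Slit per kb, had 80.8, 85.9, 84.1 and 89.5 CPM in 6m and 105, 112, 118 and 115 CPM in 24m. The libraries separated by age, but the difference (0.40 ± 0.07, adjusted p = 0.00117) was under the threshold, which it passed with library totals alone (0.62).

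Robo1 (ENSMUSG00000022883, chr16:72105194-72844378), the broadly expressed Slit receptor, had 3.96, 5.97, 5.04 and 4.08 CPM in 6m and 6.86, 15.7, 17.5 and 24 CPM in 24m. Its increase was 1.75 ± 0.33 (log2; adjusted p = 0.0014), and 2.01 without 24m replicate 1. Robo2 rose by 1.47 ± 0.31, from 9.47 ± 2.29 to 26.3 ± 10.8 CPM, with 24m replicate 1 (12.2 CPM) inside the 6m range. With the length trend removed Robo1 rose by 1.09 and Robo2 by 0.74. Robo3 (ENSMUSG00000032128, chr9:37326965-37344737), a divergent receptor that commissural axons need to cross the midline, went the other way. Its levels were 8.35, 9.18, 11.3 and 8.71 CPM in 6m and 4.5, 4.9, 5.27 and 4.53 CPM in 24m, with all 4 libraries of 24m close together and below all of 6m. The difference of -0.97 ± 0.13 (log2; adjusted p = 0.000237) stayed between -1.27 and -0.75 over all alternatives, the only lower call among the members that held in each of them. Robo4, the endothelial member and the neighbour of Robo3 on chromosome 9, had 2.43 ± 0.473 CPM at 6m and 2.07 ± 0.638 CPM at 24m and was not called (-0.23 ± 0.23, adjusted p = 0.401).

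Among the co-receptors of class 3 semaphorins, Nrp2 rose and Nrp1 did not. Neuropilin-2 binds Sema3f, and neuropilin-1 binds Sema3a and also vascular endothelial growth factor. Nrp2 (ENSMUSG00000025969, chr1:62742444-62857854) was at 2.68, 3.93, 3.5 and 3.07 CPM in 6m and 7.89, 15, 17.2 and 21.9 CPM in 24m (log2 fold change 2.23 ± 0.28, adjusted p = 0.000192). Nrp1 (ENSMUSG00000025810, chr8:129085085-129231082) was at 9.98, 9.01, 10.6 and 10.8 CPM in 6m and 5.62, 9.02, 9.04 and 11.6 CPM in 24m, and the ranges overlap. The difference was -0.19 ± 0.19 (log2; adjusted p = 0.402) and -0.02 without 24m replicate 1. With the length trend removed Nrp1 was lower at 24m (-0.77, adjusted p = 0.000643), whereas Nrp2 was still higher (1.75).

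Plexin-A receptors, the signalling partners of neuropilins and the direct receptors of class 6 semaphorins, were higher in 3 of 4 members. Plxna4 (ENSMUSG00000029765, chr6:32121203-32565193) had 3.03, 3.71, 3.28 and 2.72 CPM in 6m and 8.4, 18.9, 21.9 and 35.6 CPM in 24m. The 24m libraries spread widely but all lay above 6m (log2 fold change 2.73 ± 0.37, adjusted p = 0.000266). Plxna1 rose from 22 ± 0.802 to 78.7 ± 19.6 CPM (1.84 ± 0.17, adjusted p = 4.95e-05) and Plxna2 by 1.30 ± 0.25. With the length trend removed Plxna4, Plxna1 and Plxna2 rose by 2.14, 1.26 and 0.67. Plxna3 (ENSMUSG00000031398) stood at 20.6, 18.5, 21.7 and 21 CPM in 6m and 17.5, 23.2, 22.5 and 24 CPM in 24m, which overlap (0.09 ± 0.11, adjusted p = 0.504).

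The plexins of classes B to D gave 3 higher of 5. Plxnc1 (ENSMUSG00000074785, chr10:94626728-94780877), a receptor of Sema7a, had 3.05, 5.03, 3.8 and 2.47 CPM in 6m and 8.5, 17.3, 16.6 and 25.3 CPM in 24m (log2 fold change 2.24 ± 0.33, adjusted p = 0.000402). Plxnd1, the receptor of Sema3e, rose by 0.87 ± 0.10. Plxnb1, a receptor of Sema4d, rose by 0.62 ± 0.08 but by 0.15 with the length trend removed (adjusted p = 0.279). Plxnb3 (ENSMUSG00000031385), known from oligodendrocytes, had 51.5, 42.3, 48.6 and 54.7 CPM in 6m and 52.5, 42.5, 46.9 and 43.6 CPM in 24m. Those ranges overlap (-0.09 ± 0.11, adjusted p = 0.494). Plxnb2 passed the adjusted p only (0.28 ± 0.08, adjusted p = 0.016).

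Of the 7 secreted class 3 semaphorins, 4 were called higher: Sema3a, Sema3c, Sema3d and Sema3e, all with 6m means of 0.244 to 2.56 CPM. Sema3a (ENSMUSG00000028883, chr5:13175288-13653578), the prototype repellent of the class, had 0.579, 0.919, 0.829 and 0.303 CPM in 6m and 1.16, 3.01, 2.71 and 3.81 CPM in 24m. The libraries did not overlap, and the increase was 2.02 ± 0.41 (log2; adjusted p = 0.00209). Sema3c gave 1.70 ± 0.35, Sema3e 1.59 ± 0.32 and Sema3d 1.53 ± 0.47, the last with overlapping libraries. Sema3f (ENSMUSG00000034684) was the most abundant member of the class per kb, with 20.9, 17.9, 17.2 and 21.3 CPM in 6m and 17.7, 20.7, 17.9 and 18 CPM in 24m. These values overlap (log2 fold change -0.06 ± 0.10, adjusted p = 0.646). Sema3b (0.04 ± 0.19, adjusted p = 0.87) and Sema3g (0.46 ± 0.26, adjusted p = 0.148) were not called, although Sema3g passed both thresholds without 24m replicate 1 (0.65, adjusted p = 0.017).

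No class 4 semaphorin was called, beside 43.6% of all tested genes called in either direction. The 6 members had log2 fold changes of 0.00 to 0.52. Sema4f (ENSMUSG00000000627), a transmembrane member, had 36.6, 37.1, 37.3 and 39.2 CPM in 6m and 46.1, 55.2, 59.5 and 54.7 CPM in 24m. The ages separated, and the log2 fold change of 0.52 ± 0.09 (adjusted p = 0.00102) reached 0.60 without 24m replicate 1. Sema4c likewise passed without that library (0.60, against 0.48 ± 0.12 with it). With library totals alone Sema4f (0.75), Sema4c (0.71) and Sema4b (0.59) were called higher, and with the GC trend removed Sema4f (0.61) and Sema4c (0.70). Sema4a (ENSMUSG00000028064) had 48.5, 49.1, 48.9 and 51.4 CPM in 6m and 50.8, 50, 52.3 and 45.2 CPM in 24m (log2 fold change 0.00 ± 0.08, adjusted p = 0.979). Sema4d, which signals through plexin-B1, passed the adjusted p alone (0.30 ± 0.08, adjusted p = 0.00623), as did Sema4b (0.37 ± 0.09, 0.00563). Sema4g did not (0.24 ± 0.09, 0.0525).

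The membrane-bound semaphorins of classes 5 to 7 were higher in 4 of 7 members. Sema5a (ENSMUSG00000022231, chr15:32244919-32696487), which carries thrombospondin repeats, had 0.792, 1.07, 0.912 and 0.832 CPM in 6m and 2.31, 5.92, 6.6 and 10.2 CPM in 24m. All 24m libraries were above 6m (log2 fold change 2.79 ± 0.39, adjusted p = 0.000322). Sema6d, a ligand of plexin-A1, rose from 4.58 ± 0.611 to 22.5 ± 10.8 CPM (2.30 ± 0.35, adjusted p = 0.000509). Sema6a, a ligand of plexin-A2 and plexin-A4, is the least settled call of the family. Its log2 fold change of 0.88 ± 0.30 (adjusted p = 0.0275) lost the call without 6m replicates 1, 2 or 4 (adjusted p = 0.0575, 0.0551 and 0.0759) or 24m replicates 3 or 4 (0.0597 and 0.0742), and 24m replicate 1 (5.71 CPM) was below every 6m library. The call was also lost after quantile normalization with DESeq2 (0.57) and with the length trend removed (0.48, adjusted p = 0.114). Sema7a (ENSMUSG00000038264, chr9:57847375-57870151), which is anchored by a lipid and binds plexin-C1 and integrins, was even in both groups. It had 122, 124, 122 and 131 CPM in 6m and 211, 218, 218 and 196 CPM in 24m (0.76 ± 0.07, adjusted p = 5.37e-05), and was named after its values were seen. Sema6c (ENSMUSG00000038777) had 42.3, 31, 37.9 and 43.1 CPM in 6m and 43.9, 38.3, 38.7 and 33 CPM in 24m and did not separate (adjusted p = 0.983). Sema6b passed the adjusted p alone (0.32 ± 0.09, adjusted p = 0.0103) but both thresholds with the GC trend removed (0.62). Sema5b did not pass the adjusted p (0.30 ± 0.24, 0.305). It passed the adjusted p alone without 24m replicate 1 (0.52, adjusted p = 0.00293).

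EphA receptors gave 5 higher and 1 lower of 9. Epha4 (ENSMUSG00000026235, chr1:77343822-77492816), which binds ephrins of both classes, had the largest log2 fold change of the 69 members in this fit. It was at 3.54, 4.72, 4.54 and 2.68 CPM in 6m and 10.7, 28.4, 28.5 and 41.9 CPM in 24m, a ratio of means of 7.07 (2.82 ± 0.37, adjusted p = 0.000242). With 24m replicate 1 left out it was 3.10, and with the length trend removed 2.50. Epha5, Epha6, Epha7 and Epha8 rose by 0.95 ± 0.26, 0.83 ± 0.24, 0.63 ± 0.19 and 0.77 ± 0.14. The libraries of Epha5 and Epha7 overlapped. Epha7 lost its call without 6m replicate 4 or 24m replicate 4 (0.51 each), after quantile normalization with DESeq2 (0.48) and with the length (0.16) or GC trend (0.36) removed. Epha6 lost its call after quantile normalization (0.46) and, under the threshold before rounding, without 24m replicate 4 (0.58) and with the GC trend removed in the fit with the replicate block (0.58). Epha5 lost its call with the length trend removed (0.27, adjusted p = 0.0915). Epha1 (ENSMUSG00000029859, chr6:42335406-42350208) had 3.14, 2.72, 2.77 and 3.27 CPM in 6m and 2.37, 2.15, 1.79 and 1.62 CPM in 24m. The ages did not overlap, but the log2 fold change of -0.58 ± 0.16 (adjusted p = 0.00885) lay at the threshold and the call was made in 9 of 19 alternatives. It was not made when 1 of these libraries was left out: 6m replicate 1 (-0.56) or 4 (-0.54), 24m replicate 3 (-0.54) or 4 (-0.50). With library totals alone the value was -0.37, and with the length or the GC trend removed -0.49. A gene on the other strand shares 36.9% of the exonic bases of Epha1, and whether counting used strand was not stated. Epha10, a member without kinase activity, passed the adjusted p alone (0.53 ± 0.09, adjusted p = 0.000866) and was called higher with library totals alone (0.75) and with the GC trend removed (0.70). Epha2 (0.17 ± 0.18) and Epha3 (0.08 ± 0.27) did not pass it.

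EphB receptors were higher in 2 of 5 members. Ephb2 (ENSMUSG00000028664, chr4:136374850-136563351), a receptor at excitatory synapses, had 11.4, 12.3, 12.1 and 13.4 CPM in 6m and 18.5, 23.8, 24.1 and 25.2 CPM in 24m. Its log2 fold change of 0.90 ± 0.12 (adjusted p = 0.000215) was 0.42 with the length trend removed. Ephb1 rose by 0.62 ± 0.09, but was under the threshold without 24m replicate 4 (0.57), with the length trend removed (0.40) and with the GC trend removed (0.53). Ephb6 (ENSMUSG00000029869), whose kinase domain is inactive, was the most abundant Eph receptor per kb, with 185, 188, 192 and 190 CPM in 6m and 178, 160, 172 and 148 CPM in 24m. All 24m libraries were below 6m, but the difference of -0.20 ± 0.08 (log2; adjusted p = 0.0472) was under the threshold and was 0.02 with library totals alone. Ephb3 (-0.07 ± 0.10) and Ephb4 (0.22 ± 0.12) did not pass the adjusted p.

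The lipid-anchored ephrin-A ligands ranged from -0.82 to 2.15. Efna5 (ENSMUSG00000048915, chr17:62909956-63188312), a repellent in topographic maps, had 0.488, 0.552, 0.481 and 0.514 CPM in 6m and 1.35, 2.06, 2.55 and 3.14 CPM in 24m (2.15 ± 0.26, adjusted p = 0.000152). Efna4 fell from 0.581 ± 0.101 to 0.329 ± 0.0201 CPM (-0.82 ± 0.20, adjusted p = 0.00528). With the length trend removed the value was -0.23 (adjusted p = 0.339). Efna2 (ENSMUSG00000003070) had 4.77, 4.89, 5.57 and 5.3 CPM in 6m and 4.62, 5.12, 5.55 and 5.08 CPM in 24m, which overlap (adjusted p = 0.932). Efna1 and Efna3 had log2 fold changes of 0.00 and 0.02. In the transmembrane ephrin-B ligands, Efnb2 (ENSMUSG00000001300, chr8:8667226-8711249) had 0.96, 1.71, 1.39 and 1.09 CPM in 6m and 3.32, 6.44, 7.48 and 9.24 CPM in 24m (2.36 ± 0.31, adjusted p = 0.000242). Efnb3, known from neurons and myelin, rose from 75 ± 2.55 to 120 ± 9.93 CPM (0.67 ± 0.08, adjusted p = 0.000153). Efnb1 (ENSMUSG00000031217) had 6.84, 8.07, 6.62 and 7.85 CPM in 6m and 11, 10.7, 11 and 11 CPM in 24m. Its log2 fold change of 0.57 ± 0.10 (adjusted p = 0.00121) fell just short of the threshold and reached it without replicate 2 (0.62) or 4 (0.60) of 6m or replicate 2 of 24m (0.58), with library totals alone (0.79) and with the length (0.67) or GC trend (0.73) removed.

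Within families the member with the highest mean share changed in neuropilins, plexin-A receptors, Robo receptors and class 4 semaphorins and was the same at both ages in the other families. Levels were divided by exonic length and each library's family sum was set to 100%, which makes these shares independent of library scaling. Nrp1 made up 70.7% ± 4.58 of neuropilin level in 6m and 31.8% ± 3.1 in 24m (SD, n = 4), and Nrp2 the rest. The share of Nrp2 was 25.4, 35.6, 29.6 and 26.5% in the 6m libraries and 64, 67.8, 70.6 and 70.5% in the 24m libraries, so that the order of the pair was the opposite in every library of the other age, 24m replicate 1 included. Among plexin-A receptors Plxna3 went from 50.9% ± 2.57 to 25.1% ± 4.29 and Plxna1 from 27.6% ± 0.718 to 44.4% ± 1.35. Robo3 went from 52.9% ± 3.81 of the Robo level to 23.1% ± 8.04, with 34.5% in 24m replicate 1 and 15.5 to 21.6% in the others, while Robo2 reached 35.6% ± 5.15 and Robo1 28% ± 4.96. In 24m replicate 1 Robo3 still led, with Robo2 at 29.3%. Ntn1 went from 3.73% ± 0.242 to 17.5% ± 1.82 of netrin level, with Ntn5 still the largest at 45.6% ± 6.32. Among class 4 semaphorins Sema4d and Sema4f were close at 6m (23.1% ± 0.307 and 22.5% ± 0.413), and Sema4f led at 24m (25.9% ± 1.01, against 22.9% ± 0.762 for Sema4d). The families with the same leader, beside the netrins, were led by Unc5a (90.4% ± 0.829 and 77.6% ± 2.46), Efna3 (79.8 and 79.3%), Efnb3 (91.3 and 90.2%), Slit1 (85.3 and 83.1%), Ephb6 (69.5 and 59.8%), Epha8 (31.9% ± 4.59 and 31.2% ± 8.54), Sema3f (56.4 and 47%), Sema7a (51.3 and 58.1%) and Plxnb2 (37.3 and 32.8%). Epha4 went from 4.87% ± 1.16 to 18.6% ± 7.04 of the EphA level. In 24m replicate 4 Epha4 led with 25.3%, and Epha8 was at 22.6%. Across all 69 members Sema7a ranked first per kb at both ages (37.6 ± 1.28 and 63.5 ± 3.22 CPM per kb) and Sema6b second. These shares were picked after the values were seen and carry no test.

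**Figure D4:**
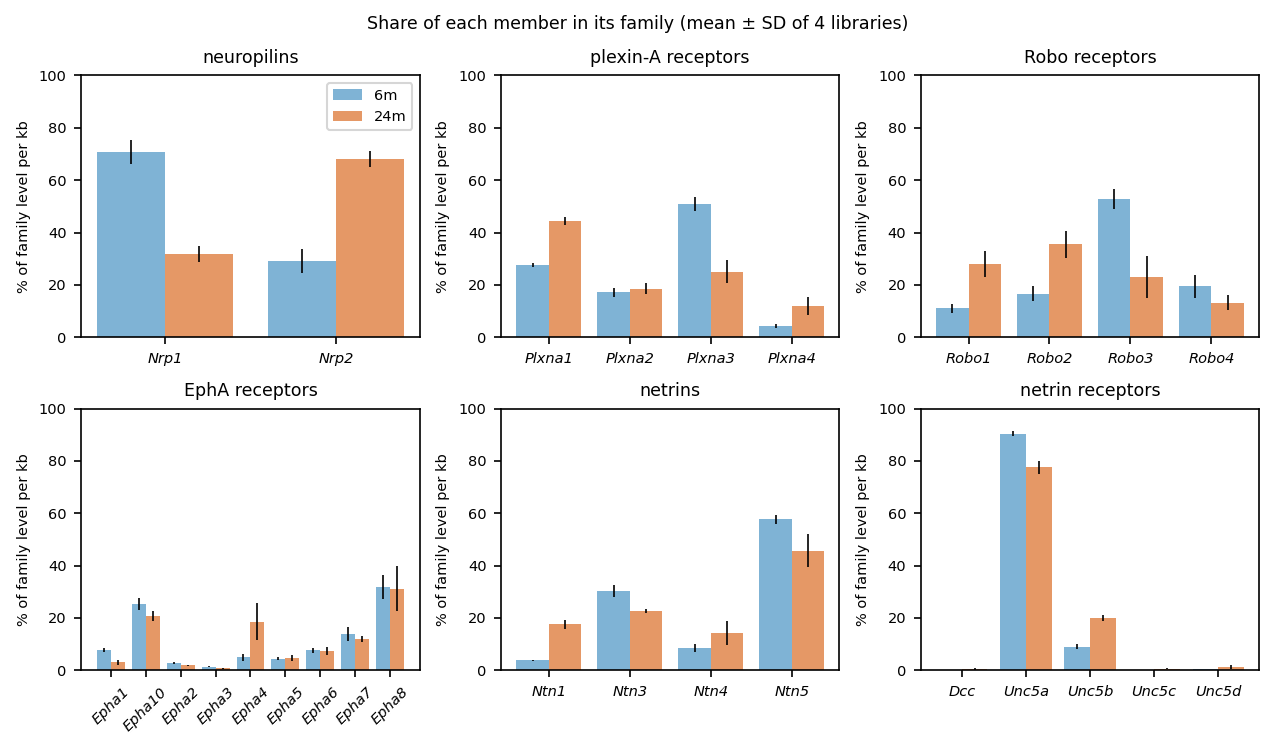
Share of each member in the level per kb of its family at 6m (blue) and 24m (orange), in percent, as mean ± SD of 4 libraries, for 6 families. The bars of Nrp1 and Nrp2 trade places between ages, Plxna3 gives way to Plxna1, Robo3 gives way to Robo2 in the means (but not in 24m replicate 1, where Robo3 is at 34.5% and Robo2 at 29.3%), and Unc5a stays the largest of its family.

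The members called higher were longer and lower in GC content than those not called. Median exonic length was 11544 bases in the 35 members called higher and 6617 bases in the 31 not called, and median exonic GC content was 48% and 56.2%. All tested genes called higher were also longer and lower in GC content, with medians of 7970 bases and 47.2%. Over all tested genes with an annotation these were 5768 bases and 49.3%. Of 15 members with up to 45% GC, 13 were called higher, beside 25.3% of all tested genes at any GC content. Counts by GC content were not made over all tested genes. Of 22 members between 45 and 55%, 14 were higher and 1 lower, and of 32 members above 55%, 8 were higher and 2 lower. Across the members the log2 fold change had a Spearman correlation of 0.50 with exonic length, -0.52 with GC content and -0.42 with the 6m CPM. Across 16677 tested genes with an annotation these values were 0.42, -0.21 and -0.23. Genes are not independent replicates, and the points share libraries and depth. With a smoothed length trend removed from each library, 28 members were called higher and 2 lower, and 27 of the 35 higher calls held. The median over the members was then 0.34, against -0.03 over all genes. With a GC trend removed 39 were higher and 2 lower. Ntn1 (2.19), Epha4 (2.50), Efna5 (2.11), Efnb2 (2.12), Unc5b (1.60) and Sema7a (0.97) were among the calls that held without the length trend, and Epha5, Epha7, Plxnb1, Slit3 and Sema6a no longer passed the adjusted p.

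**Figure D5:**
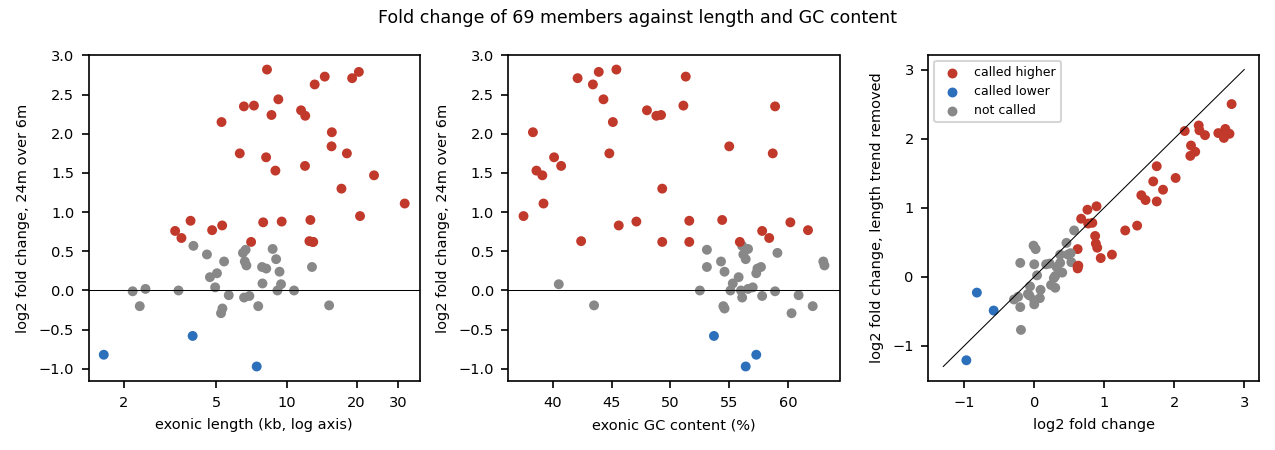
Log2 fold change of the 69 members, 24m over 6m, against exonic length in kb (log axis) and exonic GC content in percent, and after removal of the length trend against the value before it, where the line marks equality. Of the 15 members with up to 45% GC 13 are called higher, against 8 of the 32 above 55%. Over all tested genes at any GC content 25.3% are called higher. Most points of the third panel lie below the line.

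Promoter sequence was read for all members with an entry, and is shown for 2 that rose and 1 that fell. The RefSeq promoter table (GRCm38.p6, another build than that of the counts) matched 59 of the 69 members with 75 windows of 250 bases upstream of a start. The GC box GGGCGG, searched on both strands, occurred in 70.7% of the member windows and in 32.7% of 32851 windows of the same length in the table. It occurred in 68.8% of windows of members called higher and 72.5% of those not called. The TATA box TATAAA, also on both strands, occurred in 2.67% of member windows and 12.4% of all. For the E-box CACGTG, the same on both strands, the shares were 5.33% and 6.02%. Median GC content was 64.4% in member windows and 52.4% in all. A match of letters is a description and not a site of binding. The windows below belong to Nrp2 and Unc5b, which rose, and Robo3, which fell; capitals mark GC boxes on either strand, of which Nrp2 holds 5, Unc5b 2 and Robo3 3, counting overlaps. They lie at chr1:62703067-62703316 on the plus strand, chr10:60831582-60831831 on the minus strand and chr9:37433176-37433425 on the minus strand (GRCm38.p6), and are written 5′ to 3′ on the strand of the gene.
Nrp2: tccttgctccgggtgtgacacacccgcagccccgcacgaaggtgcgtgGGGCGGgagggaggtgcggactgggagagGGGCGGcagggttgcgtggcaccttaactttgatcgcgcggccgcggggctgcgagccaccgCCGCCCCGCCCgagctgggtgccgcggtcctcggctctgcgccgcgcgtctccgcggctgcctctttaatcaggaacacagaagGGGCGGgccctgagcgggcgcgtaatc
Unc5b: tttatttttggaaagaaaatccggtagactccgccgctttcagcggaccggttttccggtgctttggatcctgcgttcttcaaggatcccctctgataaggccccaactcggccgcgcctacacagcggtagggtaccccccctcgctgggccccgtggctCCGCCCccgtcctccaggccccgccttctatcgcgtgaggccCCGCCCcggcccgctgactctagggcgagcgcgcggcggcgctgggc
Robo3: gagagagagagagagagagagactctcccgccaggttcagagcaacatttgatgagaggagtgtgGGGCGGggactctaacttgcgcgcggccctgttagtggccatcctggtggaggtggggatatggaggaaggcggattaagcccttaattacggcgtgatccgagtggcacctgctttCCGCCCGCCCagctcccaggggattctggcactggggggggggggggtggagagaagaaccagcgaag

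Beyond the 69 members, the proteins that carry guidance signals inside the cell and further guidance cues were examined from lists drawn up with earlier results of these data known. Of 53 effectors 24 rose and 3 fell. The median over the list was 0.40, or 0.06 with the length trend removed. Srgap3, a GTPase-activating protein downstream of Slit and Robo, had the largest value (3.13 ± 0.29, adjusted p = 4.89e-05, from 9.91 to 86.9 CPM). Dpysl2, the collapsin response mediator of Sema3a signalling, rose by 1.57 ± 0.25. The exchange factors Trio and Kalrn rose by 1.35 ± 0.17 and 1.28 ± 0.18. The 3 that fell were the kinases Rock1 (-1.05 ± 0.17) and Cdk5 (-0.69 ± 0.15) and the actin regulator Evl (-0.80 ± 0.11). The small GTPases themselves were not called: Rac1 had 0.50 ± 0.11, Rhoa -0.23 ± 0.11 and Cdc42 -0.08 ± 0.07. Of 34 other cues and receptors 17 were higher and 0 lower (median 0.57). Neo1, the relative of Dcc that also binds netrins, rose by 0.99 ± 0.20, its other ligand Rgma by 0.89 ± 0.09, and the adhesion molecules Cntn2 and L1cam by 1.61 ± 0.12 and 1.17 ± 0.20. The netrin-G genes Ntng1 (-0.02 ± 0.19) and Ntng2 (-0.14 ± 0.10) were not called, nor were the myelin inhibitors Mag, Omg and Rtn4 (-0.18, -0.14 and 0.32). The shares called, 50.9% and 50%, compare with 43.6% of all tested genes. Genes of both lists were named after their values were seen.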

How the data were processed

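Polyadenylated RNA of 8 mouse brains was sequenced as directional paired-end libraries. The authors trimmed reads with Trim Galore, aligned them to GRCm39 with HISAT2 2.1.0 (version per the labels) and counted them per Ensembl gene with featureCounts; strand setting and multimapping were not stated. The deposited table holds raw counts, with no replicates pooled. The 12 pairs of libraries of 1 age differed by 8.18 to 417 in chi-square per degree of freedom, so each library was 1 replicate, and p-values measure the spread between animals. In their own analysis the authors used quantile and row-median normalization with DESeq2.

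Members, lists and the naming rule were chosen with earlier results of these data known. Identifiers were matched to GENCODE vM39 of the same assembly (22281 of 22430 genes; the rest held 0.312% of counts), which also gave coordinates, the union of exons as exonic length and GC content. Genes above 5 counts in 4 or more of the libraries were tested with the edgeR 4.0.16 quasi-likelihood test (R 4.3.3), trimmed mean of M values factors and age as the only term. The SE was derived from the F statistic (fold change divided by its root), and CPM use scaled library sizes. By the naming rule, values per library are given for the member with the highest and with the lowest fold change in each family. Only members with a mean of at least 1 CPM over both ages were eligible. Unc5c, Sema3a, Efna5 and Sema5a, with 6m means of 0.654, 0.658, 0.509 and 0.903 CPM, were eligible only through their 24m level. Efna4, which was called lower, was not eligible (0.581 and 0.329 CPM). The rule thus favours members that rose. Other members are given by fold change. Levels between genes were compared per kb. CPM across genes served as a measure of counting depth and in the summed levels of the marker lists. Those sums are not per kb, so long and abundant genes weigh most in them. Marker genes were matched by symbol; 1 microglia gene was not matched. Exons shared with a gene on the other strand occur in 37 members, over 10% of bases in 12.

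Alternatives were relative log expression factors, library totals, DESeq2 1.42.0, quantile normalization with DESeq2, other filters, each library left out, the replicate number as a block, and a lowess trend over length or GC (span 0.3) removed as an offset. On simulated data for 24m against 6m over 16730 genes, the fit recovered 64.5% of 200 genes changed by a log2 value of 1. It called 7 unchanged genes, and 0 when nothing was changed. The length offset brought the correlation with a length trend put into the simulation from 0.746 to -0.00342. Genes were drawn independently, with no library shifted as 24m replicate 1 was, and 7295 genes were called in the data. The simulated error rates therefore cannot be carried over to these data. Isoforms, long reads and the second cohort were not analysed here.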

Additional observations from a re-analysis of the deposited data

Results flagged for a closer look

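Of 138 groups of 4 libraries (69 members at both ages), 5 held a library far from the other 3 by Dixon's criterion, and chance marks about 1 in 20 groups. At 24m, Epha10 was at 33 CPM in replicate 4 and at 29.9 to 30.3 CPM in the others, Efnb1 at 10.7 CPM in replicate 2 and 11 CPM in the others, and Sema3f at 20.7 CPM in replicate 2 and 17.7 to 18 CPM in the others. At 6m, replicate 4 stood out for Sema7a (131 CPM, others 122 to 124 CPM) and for Plxnb1 (95.5 CPM, others 81.5 to 82.5 CPM). In Epha10, Efnb1, Sema7a and Plxnb1 the marked library lay on the same side of the other age as its group did. The low 24m replicate 1 of the members called higher was not marked in any of them.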

How the results depend on the processing

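Of the 35 higher calls 25, and of the 3 lower calls 1 (Robo3), were made under every alternative that tested them. Dcc, Sema3d and Efna4 were not tested with at least 1 CPM in 4 libraries. Leaving out 1 library gave 30 to 38 higher and 2 to 3 lower calls, and the highest and lowest counts belong to 24m replicates 1 and 4. A 6m mean below 1 CPM, with few counts behind the value, occurred in 8 members: Dcc, Efna4, Efna5, Sema3a, Sema3d, Sema5a, Unc5c and Unc5d. Without the fold-change threshold 5 members were lower. Replicate numbers name animals and did not pair them (correlations of same-numbered deviations of 0.271, 0.143, 0.0778 and -0.348); with the replicate block 34 members were higher and 3 lower, Sema6a being lost (0.76).

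Family medians (log2) moved as follows, and the cause was not tested. With library totals alone they were 0.85 in EphA receptors, 0.43 in EphB receptors, 0.21 in ephrin-A and 0.89 in ephrin-B ligands, 0.56 in class 4 semaphorins, 0.85 in plexins B to D and 0.57 in netrins. After quantile normalization with DESeq2 they were -0.06 in EphB receptors and -0.33 in ephrin-A ligands (both reversed), 0.72 in plexins B to D and 0.06 in netrins. With the length trend removed, without and with the replicate block, they were 0.21 and 0.21 in EphA receptors, 0.40 and 0.40 in ephrin-A ligands, 1.11 and 1.09 in class 3, 0.04 and 0.04 in class 4 and 0.48 and 0.40 in class 5 to 7 semaphorins, 0.97 and 0.96 in plexin-A receptors, 0.15 and 0.16 in plexins B to D, 0.49 and 0.47 in neuropilins, 0.12 and 0.11 in Slits, 0.23 and 0.21 in Robo receptors, 0.61 and 0.59 in netrins and 2.01 and 1.94 in netrin receptors. With the GC trend removed, again without and with the block, they were 0.38 and 0.38 in EphB receptors, 0.18 and 0.18 in ephrin-A, 0.86 and 0.86 in ephrin-B ligands, 0.44 and 0.43 in class 4 semaphorins, 0.78 and 0.78 in plexins B to D and 0.49 and 0.47 in netrins. The median of class 3 semaphorins was 1.01 with at least 1 CPM in 4 libraries, which tests fewer of them. With 1 library left out the medians were 0.18 to 0.30 in EphB receptors and 0.31 to 0.41 in netrins.

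Among members not called, the sign turned in the following cases. With library totals alone these were Ephb3 (0.15), Ephb6 (0.02), Efna2 (0.21), Sema3f (0.17), Sema6c (0.21), Plxnb3 (0.13), Nrp1 (0.04) and Ntn5 (0.01). After quantile normalization with DESeq2 they were Epha2 (-0.11), Epha3 (-0.20), Ephb4 (-0.10), Efna1 (-0.33), Efna3 (-0.02), Sema3b (-0.22) and Plxna3 (-0.06). With the length trend removed, without and with the block, they were Epha3 (-0.31, -0.34), Efna2 (0.45, 0.44), Sema4a (-0.34, -0.34), Sema4d (-0.16, -0.16), Sema4g (-0.12, -0.12), Plxna3 (-0.19, -0.19), Plxnb2 (-0.02, -0.01) and Ntn5 (0.20, 0.20), and with the block also Sema3b (-0.00) and Sema5b (-0.03). With the GC trend removed they were Epha3 (-0.25, -0.26), Ephb3 (0.11, 0.11), Efna2 (0.19, 0.18), Sema3f (0.19, 0.18), Sema6c (0.13, 0.13), Plxnb3 (0.07, 0.07) and Ntn5 (0.06, 0.06). Efna1 and Sema4a were at -0.00 with relative log expression factors and with DESeq2 and at -0.01 with the 1 CPM filter, Sema6c at 0.01 without a filter, and Efna1 and Sema6c at -0.01 and 0.00 with the replicate block. With 1 library left out Epha3 ranged from -0.09 to 0.31, Efna1 from -0.10 to 0.09, Efna2 from -0.06 to 0.04, Efna3 from -0.02 to 0.08, Sema3b from -0.10 to 0.16, Sema4a from -0.02 to 0.04 and Sema6c from -0.10 to 0.06.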
